A study of Homo sapiens with 12 samples.

Results

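The transcripts of MDM2, MDM4, GADD45A and 6 inhibitors of cyclin-dependent kinases (CDKs) were followed in 2 human breast cancer cell lines with and without an aqueous extract of the plant Kalanchoe pinnata. The 9 genes (MDM2, MDM4, GADD45A, CDKN1A, CDKN1B, CDKN1C, CDKN2A, CDKN2B and CDKN2C) were picked by symbol from the 19516 genes of the deposited table that carry one. All 9 were found, all 9 passed the filter on low counts, and 7 had reads in both lines. The samples form 4 groups of 3 libraries: MDA-MB-231 with 140 µg/mL of extract for 72 h (libraries E7, E8 and E9), MDA-MB-231 control at 72 h (E1, E2 and E3), HCC1937 with 66 µg/mL for 72 h (E31, E32 and E33) and HCC1937 control at 72 h (E25, E26 and E27). Both lines are established from breast tumours that lack hormone receptors and HER2 amplification, and are labelled epithelial and wild type (WT) in genotype. What the controls received in place of the extract is not given in the labels. MDA-MB-231 was kept in DMEM and HCC1937 in RPMI 1640, both with serum, so that line, medium and dose cannot be told apart.

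p53 is a transcription factor that stress stabilises. It switches on CDKN1A, GADD45A and MDM2 among many other genes, and MDM2, a ubiquitin ligase, in turn marks p53 for degradation, helped by its relative MDM4. CDK inhibitors bind CDKs and their cyclins and hold cells before DNA replication. The CIP/KIP family (p21, p27 and p57, from CDKN1A, CDKN1B and CDKN1C) acts on several CDKs, and the INK4 family (CDKN2A, CDKN2B and CDKN2C) on CDK4 and CDK6. Both lines are known to carry a mutated p53, and MDA-MB-231 is known to lack the CDKN2A region of chromosome 9.

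Promoters are shown for 3 genes on which the results turn: CDKN1A, which was higher with extract in both lines, and CDKN1B and MDM2, which were lower. RefSeq (GRCh38.p14) gave a promoter entry for 7 of the 9 genes. Each line holds the 250 bases before the start of transcription, 5′ to 3′ on the gene's plus strand: chr6:36678464-36678713 for CDKN1A, chr12:12717118-12717367 for CDKN1B and chr12:68807922-68808171 for MDM2. Capitals mark the motifs found on either strand.
CDKN1A: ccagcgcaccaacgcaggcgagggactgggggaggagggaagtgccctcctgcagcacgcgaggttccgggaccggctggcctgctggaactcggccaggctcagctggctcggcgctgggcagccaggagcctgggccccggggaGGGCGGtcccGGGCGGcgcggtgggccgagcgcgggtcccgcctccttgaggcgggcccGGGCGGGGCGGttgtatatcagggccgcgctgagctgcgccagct
CDKN1B: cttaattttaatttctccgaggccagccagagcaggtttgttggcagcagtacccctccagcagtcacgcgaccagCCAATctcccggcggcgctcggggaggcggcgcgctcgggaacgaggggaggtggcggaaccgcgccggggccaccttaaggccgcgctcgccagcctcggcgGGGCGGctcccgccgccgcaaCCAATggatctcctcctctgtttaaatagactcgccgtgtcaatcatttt
MDM2: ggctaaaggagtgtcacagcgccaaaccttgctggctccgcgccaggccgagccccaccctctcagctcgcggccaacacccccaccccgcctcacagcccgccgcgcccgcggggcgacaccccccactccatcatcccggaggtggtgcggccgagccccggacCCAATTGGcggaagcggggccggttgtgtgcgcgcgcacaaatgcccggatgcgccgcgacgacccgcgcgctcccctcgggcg
The CDKN1A window holds 4 GC boxes (GGGCGG, the binding sequence of SP1-type factors), which lie 104, 94, 45 and 40 bases before the start, with the last 2 overlapping by a base. CDKN1B holds 1 GC box, 71 bases before the start, and 2 CCAAT boxes, at 174 and 50 bases. MDM2 holds 2 overlapping CCAAT boxes on opposite strands, 84 and 81 bases before the start, and no GC box. Of 35116 RefSeq promoters of the same length, 42.6% hold a GC box and 32% a CCAAT box. None of the 7 windows holds the p53 site core CATGNNNNNNCATG (0.296% of all promoters do), the AP-1 site TGANTCA (6.57%), the ATF4 and CHOP core TGATGNAA (3.14%) or TATAAA (10.7%). The known p53 sites of CDKN1A and MDM2 lie outside these windows, farther upstream and in an intron.

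Values are estimated read counts, scaled to a common effective library size and given as CPM. Library totals ran between 16170545 and 31337431 counts, and the floor of 3 counts was worth 0.099 to 0.213 CPM in a single library. Changes are log2 fold changes from edgeR's quasi-likelihood test, with a standard error (SE) derived from its F statistic. A gene is said to rise or fall at an adjusted p under 0.05 over the 14133 genes tested. In these bulk samples, fewer cells of a kind and less RNA per cell cannot be told apart. The keratins KRT8 and KRT18 were read in every library, at 264 CPM or more. VIM, of mesenchymal cells, averaged 2.83 CPM in HCC1937 extract and 13.9 CPM in HCC1937 control libraries, against 4286 and 3736 CPM in MDA-MB-231 extract and control libraries. CDH1, the epithelial cadherin, averaged 120.1 CPM in HCC1937 extract and 186 CPM in HCC1937 control libraries and had no read in MDA-MB-231. Of 10 markers of other cell types, 5 passed the filter, none above 21.4 CPM as a group mean. In MDA-MB-231, 2 of these fell and none rose, and in HCC1937 1 rose and 2 fell. Of 9 housekeeping genes, 5 rose and 1 fell in MDA-MB-231, and 6 rose and none fell in HCC1937. Of the epithelial and mesenchymal markers, 3 rose and 3 fell among 10 in MDA-MB-231, and 4 rose and 5 fell among 12 in HCC1937. These counts stand beside 65.8% of all genes that changed in MDA-MB-231 (33% rose, 32.8% fell). In HCC1937 71.8% of all genes changed (32.7% rose, 39.1% fell).

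Library E7 stood apart from its replicates. Mitochondrial genes took 10.7% of its counts against 4.63% and 4.78% in E8 and E9. Its Spearman correlation with these was 0.974 and 0.975, where all other replicate pairs reached 0.9882 or more. The biological coefficient of variation was 0.28 in MDA-MB-231 extract, 0.0438 in MDA-MB-231 control, 0.0442 in HCC1937 extract and 0.0407 in HCC1937 control libraries. The log2 fold changes of the 9 genes in MDA-MB-231, where they had reads, are therefore given with and without E7. The offset described below is given without E7 for some of these genes only, and for none named from lists. Values that compare the extract libraries of the lines include E7 unless stated. The test shares 1 spread per gene over all 12 libraries, so E7 also enters the SE and adjusted p of the HCC1937 comparisons. The extract effect also moved with transcript length and GC content across all genes. For the 687 genes whose transcripts hold 8000 nucleotides or more with a GC content of 45% or less, which include MDM2 and MDM4, the median log2 fold change came to -1.52 in MDA-MB-231 and to -1.80 in HCC1937. It was 0.73 and 0.88 for the 2175 genes whose transcripts hold 2500 nucleotides or fewer with a GC content of 55% or more, CDKN1A, CDKN1C and CDKN2A included. The changes with extract of the 9 genes and of the genes named from lists are therefore also given after an offset that removes, library by library, a smooth trend over length and GC. The part that length and GC play in any 1 gene was not tested.

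With extract, GADD45A and CDKN1A rose in both lines, and MDM2, MDM4 and CDKN1B fell in both. CDKN1C and CDKN2C fell in MDA-MB-231, and CDKN2A, which has no read there, rose in HCC1937. With all libraries, the offset for length and GC turned the direction of MDM2, MDM4 and CDKN1A in MDA-MB-231, and of GADD45A and CDKN2A in HCC1937. With E7 left out it turned neither MDM2 (-0.03, not passed) nor MDM4 (-0.26), while CDKN1A was still turned (-0.16). Of the 7 genes with reads in MDA-MB-231, 2 rose and 5 fell, where 65.8% of all genes tested changed (33% rose and 32.8% fell). Their median log2 fold change was -1.34, beside 0.00 over all genes. Of the 9 genes in HCC1937, 3 rose, 3 fell and 3 did not pass, where 71.8% of all genes changed (32.7% rose and 39.1% fell). Their median was 0.17, beside -0.16 over all genes. So the share of the 9 genes that changed in HCC1937 lay near that of all genes. The counts in MDA-MB-231 were the same without E7, where 74.6% of all genes changed (37.3% rose and 37.2% fell). With the offset, 1 gene rose and 4 fell in MDA-MB-231, where 65.1% of all genes changed (32.8% rose and 32.3% fell), and 2 rose and 6 fell in HCC1937, where 67.3% did (29% rose and 38.3% fell).

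**Figure D1:**
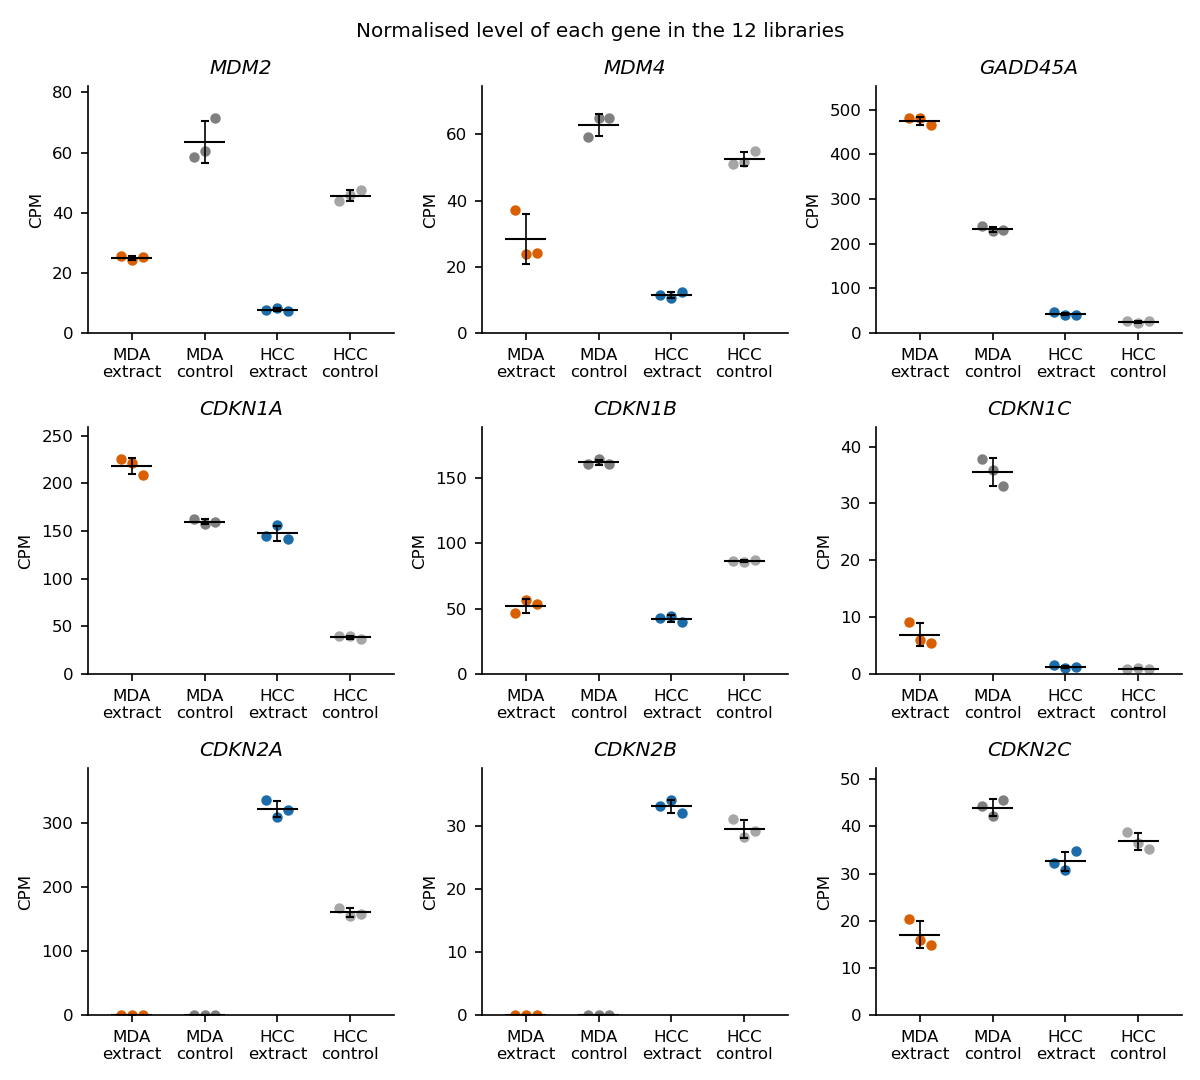
Normalised level (CPM, linear axis) of each of the 9 genes in the 12 libraries. Points are libraries, the horizontal line is the group mean and the bar its SD (n = 3). With extract, every library lay below every control library of its line for MDM2, MDM4 and CDKN1B, and above for CDKN1A and GADD45A, while CDKN2A and CDKN2B had no read in MDA-MB-231.

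MDM2 (Entrez 4193; GRCh38 chr12:68808176-68850686, plus strand), the ubiquitin ligase that turns over p53, was lower with extract in both lines. It had 25.7, 24.3 and 25.2 CPM in MDA-MB-231 extract libraries E7, E8 and E9, against 58.5, 60.4 and 71.4 CPM in controls E1, E2 and E3. In HCC1937 it had 7.65, 8.32 and 7.43 CPM with extract, against 43.9, 45.8 and 47.4 CPM in controls. In each line the 3 extract libraries lay below the 3 controls, and E7 lay close to E8 and E9. The log2 fold change was -1.34 ± 0.09 in MDA-MB-231 (SE; 2.53-fold lower, edgeR adjusted p = 1.7e-07; -1.36 without E7) and -2.55 ± 0.10 in HCC1937 (5.86-fold lower, adjusted p = 2.44e-09). With the offset the HCC1937 fall was -0.86 (adjusted p = 0.000328), and the MDA-MB-231 value turned to 0.20 and no longer passed (adjusted p = 0.241). Without E7 the offset gave -0.03 in MDA-MB-231 (adjusted p = 0.733). The offset takes the longest coding transcript of MDM2, of 12633 nucleotides, whereas the median over its 19 coding transcripts is 798. With the median transcript, MDM2 fell by 0.83 on the log2 scale in MDA-MB-231 (adjusted p = 3.16e-05) and by 1.70 in HCC1937 (adjusted p = 1.26e-07). The gene-level table does not say which transcripts were present.

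MDM4 (Entrez 4194; chr1:204516379-204558120, plus strand) encodes a relative of MDM2 that binds p53 and blocks its activity. It had 37.1, 23.8 and 24.2 CPM in MDA-MB-231 extract libraries, against 59.1, 64.9 and 64.9 CPM in controls. In HCC1937 the values were 11.5, 10.7 and 12.4 CPM with extract, against 51.2, 51.7 and 54.9 CPM in controls. No extract library reached a control library of its line, and E7 was the highest of the MDA-MB-231 extract libraries. The log2 fold change was -1.16 ± 0.15 in MDA-MB-231 (edgeR adjusted p = 3.11e-05; -1.38 without E7) and -2.19 ± 0.16 in HCC1937 (adjusted p = 1.5e-07). The offset left -0.73 in HCC1937 (adjusted p = 0.0198). In MDA-MB-231 it gave 0.21 (adjusted p = 0.477) with E7, and -0.26 (adjusted p = 0.00109) without it.

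GADD45A (Entrez 1647; chr1:67685061-67688338, plus strand), a small stress protein that binds CDK1 and PCNA, had the highest level per kilobase of the 9 genes in MDA-MB-231. It had 480.4, 481 and 465 CPM in MDA-MB-231 extract libraries, against 239, 228 and 231 CPM in controls. In HCC1937 it had 46.1, 41.3 and 40.3 CPM with extract, against 26.2, 22.4 and 25.8 CPM in controls. The groups did not overlap in either line, and E7 lay between E8 and E9. GADD45A rose by 1.03 ± 0.08 on the log2 scale in MDA-MB-231 (edgeR adjusted p = 5.56e-07; 1.03 without E7) and by 0.78 ± 0.08 in HCC1937 (adjusted p = 5.19e-06). With the offset the rise was 0.34 in MDA-MB-231 (adjusted p = 0.0262), and in HCC1937 the value turned to -0.09 (adjusted p = 0.537).

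CDKN1A (Entrez 1026; chr6:36676460-36687339, plus strand) encodes p21, the CDK inhibitor through which p53 arrests the cell cycle. In HCC1937 it had 145, 156 and 142 CPM with extract, against 39.4, 39.5 and 37.0 CPM in controls. In MDA-MB-231 it had 225, 221 and 209 CPM with extract, against 163, 158 and 159 CPM in controls. Extract libraries were above controls in both lines. The gap in HCC1937 brought its extract libraries, at most 156 CPM, up to just under the MDA-MB-231 controls, at least 158 CPM. CDKN1A rose by 1.93 ± 0.07 on the log2 scale in HCC1937 (3.82-fold, edgeR adjusted p = 2.24e-09) and by 0.45 ± 0.07 in MDA-MB-231 (1.37-fold, adjusted p = 0.000142; 0.44 without E7). With the offset the HCC1937 rise was 1.07 (adjusted p = 8.22e-09). In MDA-MB-231 the offset turned the direction, to -0.17 with E7 (adjusted p = 0.0147) and -0.16 without it (adjusted p = 0.00137), and with the median transcript the value was -0.05 (adjusted p = 0.568). The rise of CDKN1A in HCC1937 passed under every alternative run.

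CDKN1B (Entrez 1027; chr12:12715058-12722371, plus strand) encodes p27, which restrains CDK2 in resting cells. It had 46.5, 56.7 and 53.5 CPM in MDA-MB-231 extract libraries, against 161, 164 and 161 CPM in controls. In HCC1937 it had 42.6, 44.7 and 39.8 CPM with extract, against 86.6, 85.6 and 87.2 CPM in controls. Each extract library was below each control of its line, and the extract groups of the 2 lines nearly met. CDKN1B fell by 1.63 ± 0.09 on the log2 scale in MDA-MB-231 (3.10-fold lower, edgeR adjusted p = 2.05e-08; -1.55 without E7) and by 1.03 ± 0.09 in HCC1937 (2.04-fold lower, adjusted p = 5.41e-07). With the offset the falls were -1.89 (adjusted p = 2.74e-09) and -1.21 (adjusted p = 1.08e-07), so CDKN1B kept its direction and call in both lines. CDKN1A and CDKN1B, of the same family, thus moved apart in HCC1937, with and without the offset.

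CDKN1C (Entrez 1028; chr11:2883213-2885773, minus strand) encodes p57, an imprinted inhibitor of cyclin E and cyclin A kinases. It had 9.18, 5.99 and 5.50 CPM in MDA-MB-231 extract libraries, against 37.8, 35.8 and 32.98 CPM in controls. In HCC1937 it was close to the detection limit, with 94 reads over the 3 extract libraries and 79 over the 3 controls. The MDA-MB-231 groups did not overlap, and E7 was the highest extract library. CDKN1C fell by 2.39 ± 0.17 on the log2 scale in MDA-MB-231 (5.24-fold lower, edgeR adjusted p = 2.64e-07; -2.62 without E7; -3.24 with the offset). In HCC1937 its averages were 1.24 ± 0.234 CPM with extract and 0.930 ± 0.0558 CPM in controls (SD, n = 3), and the difference did not pass (0.41 ± 0.25, adjusted p = 0.166), turning to -0.63 with the offset (adjusted p = 0.00941).

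CDKN2A (Entrez 1029; chr9:21967753-21995301, minus strand) encodes 2 proteins, the CDK4 and CDK6 inhibitor p16INK4A and p14ARF, which binds MDM2 and shields p53. The gene-level counts do not separate them. In HCC1937 it had 336, 310.1 and 321 CPM with extract, against 168, 155 and 159 CPM in controls. The groups were far apart, and the log2 fold change was 1.01 ± 0.08 (2.01-fold higher, edgeR adjusted p = 1.41e-05). With the offset the direction turned, to -0.17 (adjusted p = 0.0228), and with the median transcript it was 0.17 (adjusted p = 0.0546). In MDA-MB-231 none of the 6 libraries had a read of it.

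CDKN2B (Entrez 1030; chr9:22002903-22009363, minus strand), next to CDKN2A, encodes p15, an inhibitor induced by TGF-beta. It had 33.3, 34.2 and 32.1 CPM in HCC1937 extract libraries, against 31.1, 28.3 and 29.2 CPM in controls. The groups did not overlap but lay close. The difference of 0.17 ± 0.09 did not pass (edgeR adjusted p = 0.144), while RLE scaling and DESeq2 both gave 0.26 and passed (adjusted p = 0.0389 and 0.0067). The offset passed as well, with 0.59 (adjusted p = 0.000357), or 0.94 with the median transcript (adjusted p = 6.17e-05). So did an edgeR fit of the HCC1937 groups alone, with 0.22 (adjusted p = 0.00338). CDKN2A and CDKN2B share closely similar coding sequence, so reads from it could have been assigned to either gene. CDKN2B had no read in MDA-MB-231 either.

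CDKN2C (Entrez 1031; chr1:50960745-50974633, plus strand) encodes p18, the third INK4 inhibitor measured. It had 20.4, 15.8 and 14.9 CPM in MDA-MB-231 extract libraries, against 44.3, 42.2 and 45.6 CPM in controls. In HCC1937 it had 32.2, 30.7 and 34.8 CPM with extract, against 38.8, 36.5 and 35.3 CPM in controls. CDKN2C fell by 1.37 ± 0.12 on the log2 scale in MDA-MB-231 (2.59-fold lower, edgeR adjusted p = 8.14e-07; -1.51 without E7; -1.86 with the offset). In HCC1937 the value of -0.18 ± 0.11 did not pass (adjusted p = 0.171), although the libraries did not overlap, and with the offset it was -0.92 (adjusted p = 3.06e-05).

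**Figure D2:**
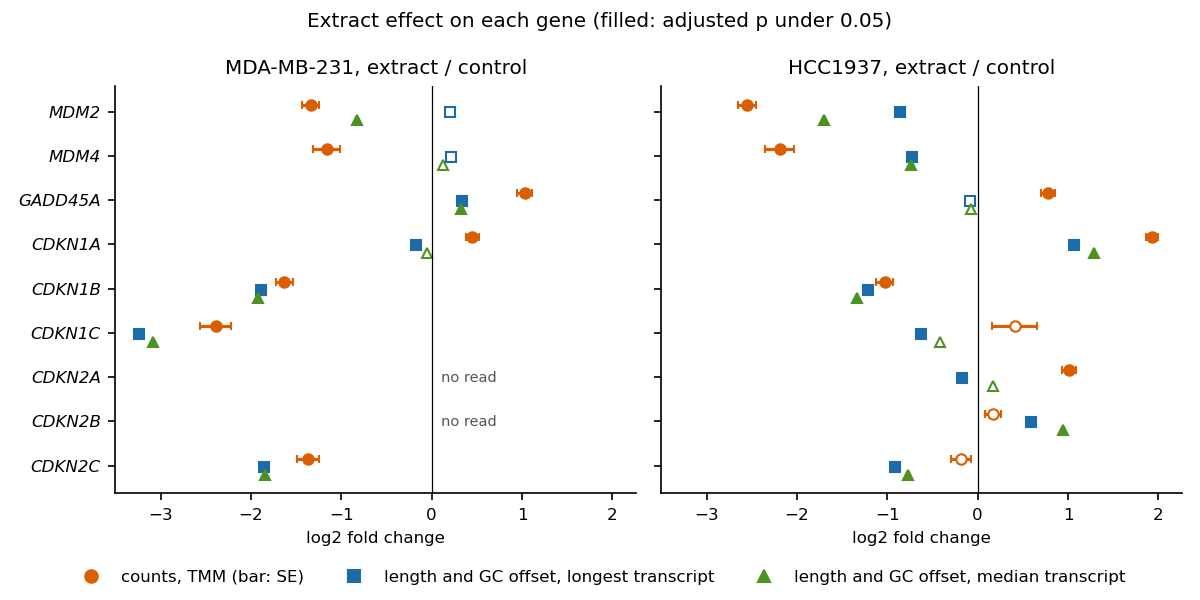
Log2 fold change of extract over control for each gene in MDA-MB-231 and HCC1937. Circles are the counts scaled by TMM with their SE, squares and triangles the 2 forms of the length and GC offset, and filled symbols mark an adjusted p under 0.05. In both lines CDKN1B stays left of 0 in all 3 forms, and in HCC1937 CDKN1A stays right of 0, while CDKN1A in MDA-MB-231 (0.45) and CDKN2A (1.01) and GADD45A (0.78) in HCC1937 come close to 0 or cross it.

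The extract effect itself differed between the lines for 6 of the 7 genes with reads in both, where 32.1% of all genes did (11.5% with a higher effect in HCC1937 and 20.6% with a lower one). The difference, HCC1937 minus MDA-MB-231, was positive for CDKN1C (2.80 ± 0.31, edgeR adjusted p = 5.28e-05), CDKN1A (1.48 ± 0.10, adjusted p = 1.78e-06), CDKN2C (1.20 ± 0.16, adjusted p = 0.0002) and CDKN1B (0.60 ± 0.12, adjusted p = 0.00265). It was negative for MDM2 (-1.21 ± 0.13, adjusted p = 5.26e-05) and MDM4 (-1.03 ± 0.21, adjusted p = 0.00331). So CDKN1A rose more, CDKN1B fell less, and MDM2 and MDM4 fell more in HCC1937. GADD45A did not pass (-0.25 ± 0.12, adjusted p = 0.121), but did without E7 (-0.23, adjusted p = 0.0119). Without E7 all 6 kept their direction and call, at 3.05 for CDKN1C, 1.52 for CDKN1A, 1.36 for CDKN2C, 0.54 for CDKN1B, -1.17 for MDM2 and -0.78 for MDM4, while 58% of all genes then differed (24.7% with a higher and 33.3% with a lower effect in HCC1937). With the offset all 6 passed as well, at 2.62, 1.24, 0.94, 0.68, -1.06 and -0.94 in the same order, where 39.8% of all genes did (15.4% higher and 24.3% lower). With the median transcript, MDM4 did not pass (-0.87, adjusted p = 0.0761). The median difference over all genes was -0.16, or -0.05 with RLE scaling.

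**Figure D3:**
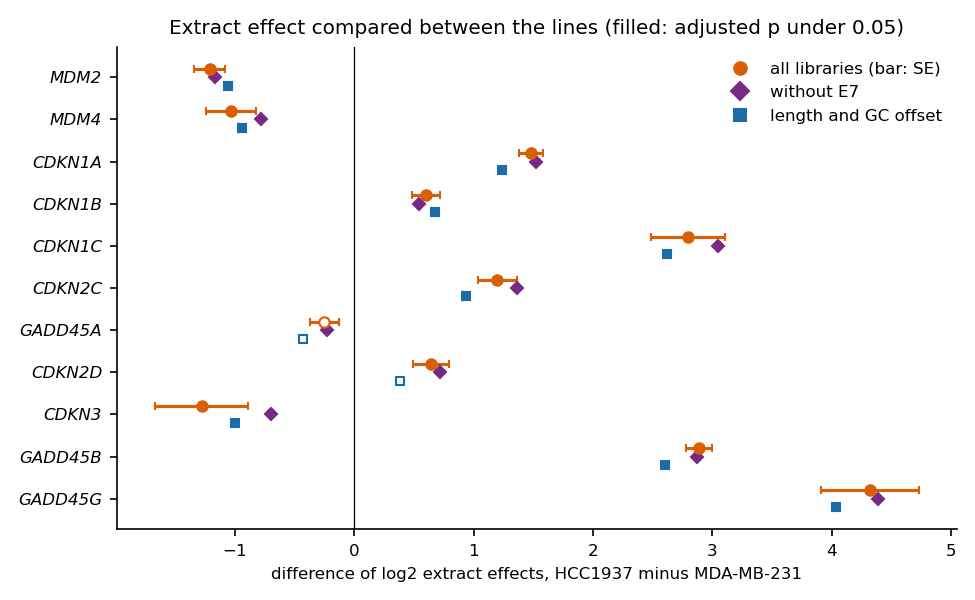
Difference between the lines in the log2 effect of the extract (HCC1937 minus MDA-MB-231) for the 7 genes with reads in both lines and 4 genes of related name. Circles with bars are all libraries with SE, diamonds leave out E7, squares use the length and GC offset, and filled symbols mark an adjusted p under 0.05. CDKN1A (1.48) and GADD45B (2.89) lie right of 0 in all 3 forms and MDM2 (-1.21) lies left.

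Between the control libraries, CDKN1A, CDKN1B, CDKN1C, GADD45A and MDM2 were lower in HCC1937, and CDKN2A and CDKN2B were higher, so 2 genes were higher and 5 lower, where 75.3% of all genes differed (38.7% higher and 36.7% lower). GADD45A averaged 24.8 ± 2.08 CPM in HCC1937 and 232 ± 5.69 CPM in MDA-MB-231 controls (SD, n = 3), a log2 fold change of -3.23 ± 0.09 (9.36-fold lower, edgeR adjusted p = 6.94e-11). CDKN1A averaged 38.6 ± 1.42 CPM in HCC1937 and 159.8 ± 2.64 CPM in MDA-MB-231 controls (-2.05 ± 0.07, adjusted p = 4.04e-10). CDKN1C was 37.9-fold lower in HCC1937 (-5.25 ± 0.21, adjusted p = 1.01e-09), CDKN1B 1.87-fold lower (-0.91 ± 0.08, adjusted p = 1.28e-06) and MDM2 1.39-fold lower (-0.47 ± 0.09, adjusted p = 0.000506). MDM4 (-0.26 ± 0.15, adjusted p = 0.127) and CDKN2C (-0.26 ± 0.11, adjusted p = 0.0534) did not pass. CDKN2C did pass, as lower in HCC1937, with RLE scaling (-0.33, adjusted p = 0.0208), upper quartile scaling (-0.35, adjusted p = 0.0154), DESeq2 (-0.33, adjusted p = 0.00505), the offset (-0.59, adjusted p = 0.000764), its median transcript form (-0.50, adjusted p = 0.00156) and a fit of these 2 groups alone (-0.30, adjusted p = 5.75e-05). MDM4 passed with upper quartile scaling (-0.35, adjusted p = 0.0487) and in the fit of the 2 groups alone (-0.30, adjusted p = 1.39e-05), and MDM2 did not pass with the median transcript offset (-0.19, adjusted p = 0.124). Against a floor of 3 counts over the MDA-MB-231 controls, worth 0.0503 CPM, CDKN2A was at least 3192-fold and CDKN2B at least 587-fold higher in HCC1937. Between the extract libraries all 9 genes differed, 3 higher and 6 lower in HCC1937, where 73.8% of all genes differed (34.1% higher and 39.7% lower). The gap of CDKN1A was narrower there (-0.57 ± 0.07, adjusted p = 1.67e-05), that of CDKN2C ran the other way (0.94 ± 0.11, adjusted p = 1.36e-05), and CDKN1B (-0.30 ± 0.09, adjusted p = 0.00683) did not pass with the offset (adjusted p = 0.112). With E7 left out, CDKN1B did pass with the offset (-0.26, edgeR adjusted p = 2.64e-05).

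Per kilobase of the longest coding transcript, the genes ranked differently in the lines. In MDA-MB-231 extract libraries GADD45A led with 318 ± 5.93 CPM per kb, ahead of CDKN1A with 96.5 ± 3.71 and CDKN1B with 19.6 ± 1.98 (SD, n = 3). In MDA-MB-231 controls the same 3 genes led, with 155 ± 3.80, 70.5 ± 1.17 and 61.0 ± 0.719 CPM per kb. In HCC1937 extract libraries CDKN2A led with 251 ± 10.2 CPM per kb, followed by CDKN1A with 65.1 ± 3.36 and GADD45A with 28.5 ± 2.08. In HCC1937 controls CDKN2A led with 125 ± 5.04 CPM per kb, followed by CDKN1B with 32.5 ± 0.314 and CDKN1A with 17.0 ± 0.626. Of the 7 genes with reads in MDA-MB-231, MDM2 and MDM4 were the lowest in its extract libraries by this length, at 1.98 ± 0.0559 and 2.82 ± 0.747 CPM per kb. These ranks depend on the length chosen. The longest coding transcript of MDM2 has 12633 nucleotides and its median transcript 798, and ranks by the median transcript were not computed.

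The absence of CDKN2A and CDKN2B reads in MDA-MB-231 extended to their neighbours on chromosome 9. Within 1 Mb of CDKN2A the table lists 23 genes, and 22 of them had no read in any of the 6 MDA-MB-231 libraries. Of these 22, 5 had at least 100 reads in HCC1937: CDKN2A (38102 reads over 6 libraries), MTAP (6188), CDKN2B (5022), KLHL9 (1824) and IFNE (361). DMRTA1, at the far side, had 30 reads in HCC1937. The remaining 16, mostly interferon genes, had fewer than 10 reads there, so their zeros say little. MTAP, the enzyme that salvages methylthioadenosine, averaged 31.8 ± 2.04 CPM in HCC1937 extract and 44.3 ± 4.44 CPM in HCC1937 control libraries (SD, n = 3). FOCAD was the exception, with 2150 reads in HCC1937 and 175 in MDA-MB-231. It lies at the outer edge (chr9:20655625-20995950), and only its end enters the window. DNA was not measured.

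**Figure D4:**
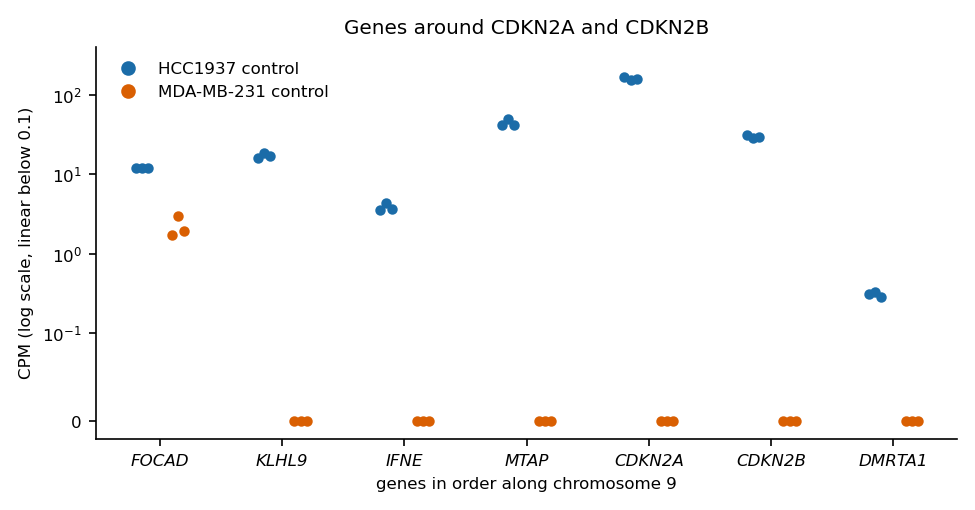
Level (CPM, log axis that turns linear below 0.1) in the control libraries of HCC1937 and MDA-MB-231 for the genes within 1 Mb of CDKN2A that had at least 10 reads in HCC1937, in their order on chromosome 9. Each point is a library. MDA-MB-231 points lie at 0 for all but FOCAD, while HCC1937 points reach 168 CPM at CDKN2A.

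Genes that share a family or only a name with the members did not all follow them. GADD45B, GADD45G and CDKN2D share a family with members, and CDKN3 shares only the name. GADD45B, a paralogue of GADD45A, fell in MDA-MB-231 and rose in HCC1937. It averaged 58.8 ± 3.01 CPM in MDA-MB-231 extract and 136 ± 6.71 CPM in MDA-MB-231 control libraries (-1.21 ± 0.08, edgeR adjusted p = 7.23e-08; -1.17 without E7), against 75.4 ± 1.92 CPM in HCC1937 extract and 23.6 ± 0.89 CPM in HCC1937 control libraries (1.68 ± 0.08, adjusted p = 5.72e-09). The offset kept both directions, at -1.97 and 0.62. GADD45G, scarce in both lines, had 101 reads over the extract and 214 over the control libraries of MDA-MB-231 (-1.14 ± 0.27, adjusted p = 0.00268), and 270 and 33 reads in HCC1937 extract and control libraries (3.17 ± 0.31, adjusted p = 1.91e-06). CDKN2D, the fourth INK4 gene, fell in MDA-MB-231 (-0.50 ± 0.11, adjusted p = 0.00152) and did not pass in HCC1937 (0.13 ± 0.11, adjusted p = 0.285). CDKN3, a phosphatase that acts on CDK2, fell in HCC1937 (-0.89 ± 0.28, adjusted p = 0.0125) and did not pass in MDA-MB-231 (0.40 ± 0.27, adjusted p = 0.224), where E7 was at 170.4 CPM and E8 and E9 at 67.5 and 71.5 CPM. Without E7 that value turned to -0.16 and passed (adjusted p = 0.00714). Of these 4 genes, 3 fell and none rose in MDA-MB-231 (4 and none without E7), and 2 rose and 1 fell in HCC1937. Over all genes, 65.8% changed in MDA-MB-231 (74.6% without E7) and 71.8% in HCC1937. With the offset 3 fell and none rose in MDA-MB-231, and 2 rose and 2 fell in HCC1937, at -1.39 for CDKN2D in MDA-MB-231, and at 1.95 for GADD45G and -1.08 for CDKN3 in HCC1937. With the median transcript CDKN3 did not pass in HCC1937 (-0.21, adjusted p = 0.321).

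The genes around the 9 members are described by list, and the named ones were the most strongly supported of each list and line. Naming a gene in a single line does not mean that it was unchanged in the other. In MDA-MB-231 the 22 genes picked by smallest p from the pathway and related-name lists kept their sign without E7, with shifts of at most 0.33 on the log2 scale. CDKN3, whose value turned without E7, and the marker and housekeeping genes are not among these 22. The 22 were picked in the fit that includes E7, so this agreement was partly set in advance. It says nothing of the genes not named. Genes listed here as targets of p53 moved in both directions. Whether p53 acts on each listed gene, CCNG2 among them, was not tested. Of 30 such targets outside the 9 genes, 9 rose and 10 fell in MDA-MB-231 (9 and 12 without E7), and of the 29 tested with reads in HCC1937 10 rose and 11 fell. Over all genes, 65.8% changed in MDA-MB-231 (33% rose, 32.8% fell) and 71.8% in HCC1937 (32.7% rose, 39.1% fell). The share of the targets that changed lay near that of all genes in both lines. The counts of the lists that follow stand beside the same shares. Counts without E7 stand beside 74.6% (37.3% rose, 37.2% fell). Counts with the offset stand beside 65.1% in MDA-MB-231 (32.8% rose, 32.3% fell) and 67.3% in HCC1937 (29% rose, 38.3% fell). The median of the targets' log2 fold changes lay at -0.15 in MDA-MB-231 and at -0.29 in HCC1937, beside 0.00 and -0.16 over all genes. SESN2, a stress-induced brake on mTORC1, averaged 96.1 CPM in MDA-MB-231 extract and 27.2 CPM in control libraries (1.82 ± 0.16, edgeR adjusted p = 9.97e-07; 1.39 with the offset). BAX, which opens pores in mitochondria during apoptosis, averaged 145 and 73.0 CPM there (0.99 ± 0.11, adjusted p = 7.3e-06), but did not pass with the offset (0.15, adjusted p = 0.156), unless it took the median transcript (0.49, adjusted p = 9.39e-05). In HCC1937, AEN, a nuclease of apoptosis, rose by 2.58 ± 0.16 (adjusted p = 6.28e-08), and PLK3, a stress-activated polo-like kinase, by 2.02 ± 0.09 (adjusted p = 4.13e-09), with 1.89 and 1.14 left by the offset. CCNG2, an atypical cyclin linked to arrest, fell in both lines, by 1.37 ± 0.10 in MDA-MB-231 (adjusted p = 1.94e-07) and 1.77 ± 0.10 in HCC1937 (adjusted p = 1.9e-08). The offset left -0.28 and -0.41 of these falls, both passed. With the median transcript they were larger, at -1.15 in MDA-MB-231 (adjusted p = 1.27e-05) and -1.24 in HCC1937 (adjusted p = 6.53e-06). TP53INP1, a p53-induced protein of cell death and autophagy, fell in MDA-MB-231 (-2.23 ± 0.21, adjusted p = 2.65e-06; -0.91 with the offset), and PLK2, a kinase related to PLK3, fell in HCC1937 (-1.15 ± 0.08, adjusted p = 1.03e-07; -1.22 with the offset). By group mean, TP53INP1 was also lower with extract in HCC1937 (6.415 against 27.3 CPM). BAX was also higher in HCC1937 (154.7 against 63.2 CPM), and AEN in MDA-MB-231 (103 against 52.4 CPM). The means of SESN2, PLK3 and PLK2 also moved the same way in the other line. With the offset 8 rose and 13 fell in MDA-MB-231, and 7 rose and 11 fell in HCC1937.

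**Figure D5:**
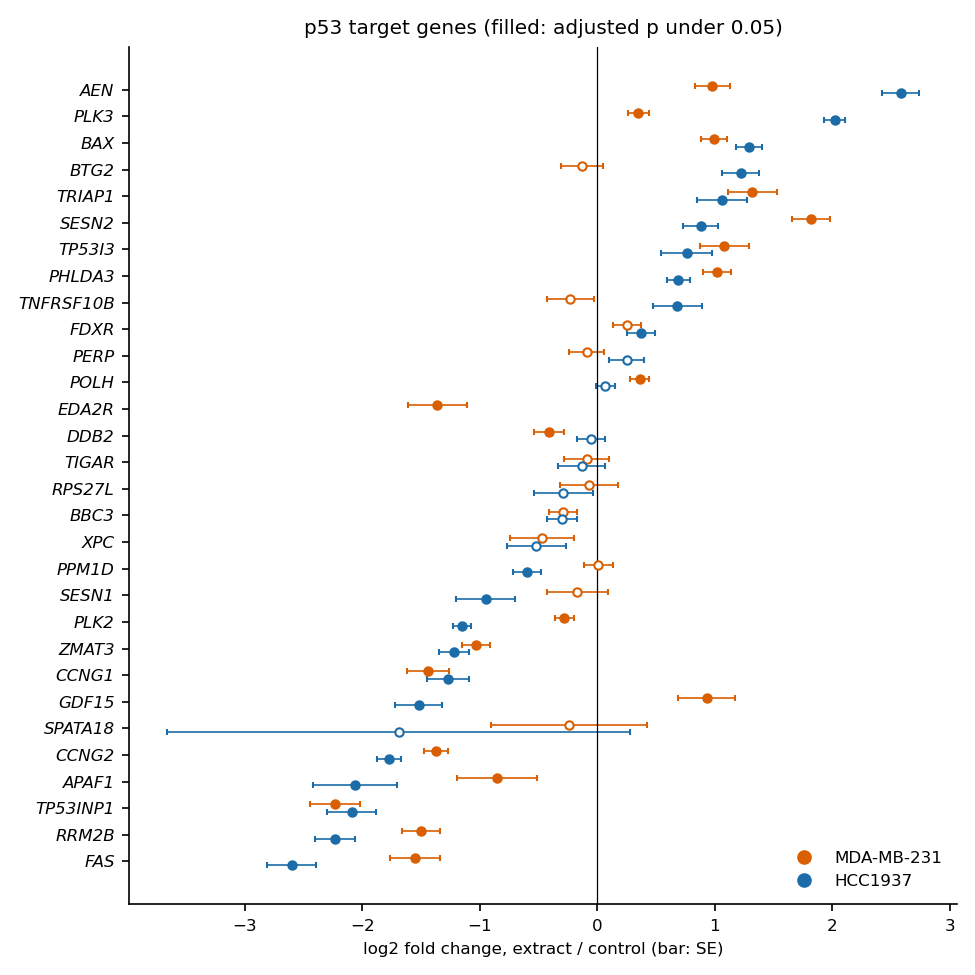
Log2 fold change of extract over control with its SE for 30 genes listed as p53 targets in MDA-MB-231 and HCC1937, ordered by the HCC1937 value. Filled points have an adjusted p under 0.05. AEN (2.58 in HCC1937) and SESN2 (1.82 in MDA-MB-231) lie far right and TP53INP1 (-2.23 in MDA-MB-231) far left, with 9 of 30 higher and 10 lower in MDA-MB-231.

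Upstream of p53, MDM2 and MDM4, 4 of 21 regulators rose and 6 fell in MDA-MB-231 (6 and 8 without E7), and 3 rose and 10 fell in HCC1937. Their medians were 0.01 and -0.59. ATR, the kinase of replication stress, averaged 6.38 CPM in MDA-MB-231 extract and 40.5 CPM in control libraries (-2.65 ± 0.13, edgeR adjusted p = 8.7e-09), and 6.57 CPM in HCC1937 extract and 38.1 CPM in control libraries (-2.53 ± 0.12, adjusted p = 8.36e-09). The offset left -1.1 and -0.82. AKT1, a kinase that phosphorylates MDM2, rose by 0.68 ± 0.08 in MDA-MB-231 (adjusted p = 2.05e-05) and 1.19 ± 0.08 in HCC1937 (adjusted p = 1.45e-07), and KAT5, an acetyltransferase that acts on p53, by 0.98 ± 0.10 (adjusted p = 3.83e-06) and 1.1 ± 0.10 (adjusted p = 9.82e-07). The offset left 0.33 and 0.59 for AKT1 and 0.36 and 0.23 for KAT5, and KAT5 did not pass in HCC1937 with the median transcript (adjusted p = 0.0602). CHEK2, a checkpoint kinase, fell in MDA-MB-231 (-0.82 ± 0.08, adjusted p = 5.06e-06; -1.04 with the offset), and TRIM24, a ubiquitin ligase for p53, in HCC1937 (-2.66 ± 0.17, adjusted p = 5.42e-08; -1.27 with the offset). With the offset the split moved to 11 higher and 6 lower in MDA-MB-231, and to 8 each way in HCC1937.

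Among 17 genes of the cell cycle machinery downstream of the CDK inhibitors (CDKs, cyclins, the RB relatives RBL1 and RBL2, the factors E2F1, E2F2 and E2F3, and the phosphatase CDC25A), 9 rose and 5 fell in MDA-MB-231 (9 and 7 without E7), with a median of 0.68, and 7 rose and 7 fell in HCC1937, with a median of 0.29. CDC25A, the phosphatase that activates CDK2, averaged 65.9 ± 10.1 CPM in MDA-MB-231 extract and 14.6 ± 0.725 CPM in control libraries (2.18 ± 0.11, edgeR adjusted p = 1.6e-08; 1.91 with the offset). CCND1, the cyclin D1 partner of CDK4 and CDK6, averaged 313 ± 33 and 121 ± 1.85 CPM there (1.37 ± 0.08, adjusted p = 6.2e-08; 1.23 with the offset). In HCC1937, CCNE1, the cyclin E1 partner of CDK2, rose by 1.89 ± 0.09 (adjusted p = 8.55e-09), and CCND3, cyclin D3, by 1.44 ± 0.08 (adjusted p = 1.84e-08), with 1.08 and 0.63 left by the offset. With the median transcript the CCNE1 rise was 1.78 (adjusted p = 2.7e-08). CDK6 averaged 21.8 CPM in MDA-MB-231 extract and 62.0 CPM in control libraries (-1.50 ± 0.15, adjusted p = 4e-06). With E7 included, CDK6 turned to 0.32 with the offset (adjusted p = 0.00467), or to 0.21 with the median transcript (adjusted p = 0.0578). In HCC1937 it fell by 2.48 ± 0.16 (adjusted p = 6.56e-08), or 0.61 with the offset. The RB relatives RBL2, in MDA-MB-231 (-2.44 ± 0.28, adjusted p = 1.07e-05), and RBL1, in HCC1937 (-2.08 ± 0.19, adjusted p = 1.15e-06), fell as well, at -1.87 and -0.55 with the offset. By group mean, RBL2 was also lower with extract in HCC1937 (38.1 against 193.5 CPM), and RBL1 in MDA-MB-231 (14.8 against 35.25 CPM). CDC25A was also higher in HCC1937 (111.9 against 34.7 CPM). The means of CCND1, CCNE1 and CCND3 were also higher with extract in the other line. With the offset 9 rose and 3 fell in MDA-MB-231, and 6 rose and 7 fell in HCC1937.

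Of 13 genes for the ubiquitin machinery that turns over CDK inhibitors, 4 rose and 4 fell in MDA-MB-231 (7 and 4 without E7), and 4 rose and 5 fell in HCC1937, with medians of 0.16 and -0.07. CDC20, an activator of the anaphase-promoting complex, rose by 1.68 ± 0.11 in MDA-MB-231 (edgeR adjusted p = 7.86e-08) and 1.25 ± 0.10 in HCC1937 (adjusted p = 5.82e-07), and PSMD4, a ubiquitin receptor of the proteasome, by 1.28 ± 0.14 (adjusted p = 6.73e-06) and 1.08 ± 0.14 (adjusted p = 2.08e-05). The offset left 0.93 and 0.28 for CDC20 and 0.49 and 0.12 for PSMD4. CUL4B, a cullin scaffold, fell by 2.75 ± 0.11 in MDA-MB-231 (adjusted p = 2.73e-09) and 2.18 ± 0.11 in HCC1937 (adjusted p = 9.11e-09), of which the offset left -1.33 and -0.45. SKP2, which brings p27 to its ligase, averaged 26.8 CPM in MDA-MB-231 extract and 41.4 CPM in control libraries (-0.63 ± 0.09, adjusted p = 7.57e-05), and 46.0 and 86.9 CPM in HCC1937 extract and control libraries (-0.92 ± 0.09, adjusted p = 2.03e-06). SKP2 and CDKN1B were thus both lower with extract in both lines, although SKP2 did not pass with the offset (0.01 and 0.06, adjusted p = 0.942 and 0.474). With the median transcript SKP2 was lower again, at -0.92 in MDA-MB-231 (adjusted p = 9.46e-06) and -1.12 in HCC1937 (adjusted p = 1.4e-06). With the offset 7 rose and 1 fell in MDA-MB-231, and 8 rose and 3 fell in HCC1937.

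Of 25 transcription regulators of these genes, 7 rose and 12 fell in MDA-MB-231 (10 and 12 without E7), with a median of -0.47, and 10 rose and 11 fell in HCC1937, with a median of 0.20. ATF3, a stress-induced factor, averaged 56.8 CPM in HCC1937 extract and 4.94 CPM in control libraries (3.52 ± 0.09, edgeR adjusted p = 7.33e-10; 2.85 with the offset). Its mean was also higher with extract in MDA-MB-231 (76.7 against 47.4 CPM). KLF4, an activator of CDKN1A, rose in MDA-MB-231 (0.83 ± 0.08, adjusted p = 1.89e-06), as did the scarce CEBPA, a differentiation factor (2.31 ± 0.22, adjusted p = 2.34e-06), with 0.32 and 1.64 left by the offset. FOXO3, an activator of CDKN1B, averaged 58.2 CPM in HCC1937 extract and 140.3 CPM in control libraries (-1.27 ± 0.14, adjusted p = 7.59e-06; -1.01 with the offset). In MDA-MB-231 its mean was also lower with extract (57.2 against 125 CPM). BMI1, a Polycomb protein that represses CDKN2A, fell by 0.81 ± 0.09 in MDA-MB-231 (adjusted p = 1.15e-05) and 1.47 ± 0.10 in HCC1937 (adjusted p = 8.14e-08), but passed in neither with the offset (0.04 and -0.15, adjusted p = 0.758 and 0.24). With the median transcript BMI1 passed in HCC1937 (-0.65, adjusted p = 0.00181). ID1, an inhibitor of helix-loop-helix factors, fell in MDA-MB-231 (-1.03 ± 0.13, adjusted p = 2.29e-05; -1.90 with the offset), and ZBTB17, a factor that binds the CDKN1A and CDKN2B promoters, rose in HCC1937 (0.90 ± 0.09, adjusted p = 1.69e-06) but did not pass with the offset (0.08, adjusted p = 0.307), unless it took the median transcript (0.19, adjusted p = 0.0302). With the offset 7 rose and 11 fell in MDA-MB-231, and 8 rose and 10 fell in HCC1937.

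The genes whose log2 CPM followed a member most closely over the 12 libraries were SHB (Pearson r = 0.9961), TUBB3 (0.9943) and DUSP7 (0.9918) for CDKN1A, and TRAF5 (0.9965), GPATCH2L (0.9937) and CLK1 (0.9935) for CDKN1B. For MDM2 they were ZC3H14 (0.9971), GALNT1 (0.9969) and TAF9B (0.9954), and for GADD45A CCN1 (0.9985), PHLDA1 (0.9979) and GNAI2 (0.9975). The 12 libraries fall into 4 tight groups, so these values describe how alike 4 group levels are.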

How the data were processed

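Poly-A RNA of 12 libraries was sequenced (3 per group). Per the submitters' processing notes, the tools were FastQC 0.12.1, fastp 0.23.4, Salmon 1.10.3, DESeq2 and R 4.4.1, with build GRCh38; the release of the annotation behind Salmon is not given in the sources used here. Expected counts (estimated reads per gene, unscaled) were deposited by the authors. Of these, 52.8% were not whole, and rounding moved none by more than 0.5. One row without a symbol and without reads was left out. Per the labels, nothing says that the 3 libraries of a group came from separate cultures, so p-values cover library-to-library spread, perhaps technical only. Replicates differed by more than sampling noise (chi-square per degree of freedom of 2.19 to 4.16, and 228 and 242 for pairs with E7).

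The analysis used edgeR 4.0.16 in R 4.3.3: filterByExpr on the 4 groups (14133 of 19516 genes kept), TMM, 1 model with 4 group means over all 12 libraries, quasi-likelihood F tests and Benjamini-Hochberg adjustment over all genes tested. After TMM, changes are relative to most genes. The median extract effect over all genes in HCC1937 was -0.16 with TMM, -0.06 with RLE and -0.24 with upper quartile scaling. Small changes in HCC1937 therefore depend on the scaling. CPM are rounded counts over effective library sizes. The length and GC offset was a smooth surface per library (mgcv 1.9.3, basis size 9 per axis, genes of at least 10 CPM) over the longest protein-coding transcript in GENCODE 29, known for 99.4% of tested genes; the median transcript was used as an alternative chosen after seeing the data. Other alternatives were RLE and upper quartile scaling, no filter, DESeq2 1.42.0, only the groups compared, and leaving out each library. The steps were tested on simulated data. Floors of 3 counts cover counting error only. Genes named besides the 9 are, per list and line, up to 2 called genes in each direction with the smallest p and 1 CPM or more on average in that line, all 4 genes of related name, and the 3 genes most correlated with CDKN1A, CDKN1B, MDM2 and GADD45A. The genes of the CDKN2A region were named after their values were seen. The 9 genes and the lists were chosen with earlier results of these data known. Lists are described by counts and medians only. One gene closely tied to this pathway is not reported here.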

Additional observations from a re-analysis of the deposited data

Results flagged for a closer look

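The effect of the extract differed between the lines, by a test of the difference itself (HCC1937 minus MDA-MB-231, edgeR quasi-likelihood test, adjusted over all genes), for 10 genes. Among the 9 genes of the report it was -1.21 for MDM2, -1.03 for MDM4, 1.48 for CDKN1A, 0.60 for CDKN1B, 2.80 for CDKN1C and 1.20 for CDKN2C on the log2 scale. The CDKN1C value rests on 94 reads in HCC1937 extract and 79 in HCC1937 control libraries. Among the other genes of related name it was 0.64 for CDKN2D (adjusted p = 0.0082, not passed with the offset), -1.28 for CDKN3 (adjusted p = 0.0257), 2.89 for GADD45B (adjusted p = 1.63e-08) and 4.32 for GADD45G (adjusted p = 1.96e-05). The CDKN3 value was -0.70 without E7. GADD45B and GADD45G each rose in HCC1937 and fell in MDA-MB-231. As 32.1% of all genes tested differed between the lines, and dose and medium differed with line, these flags are frequent in these data.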

How the results depend on the processing

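The 41 fold changes of the members were recomputed under each alternative, which gave 591 values. Of these, 555 kept direction and call, 7 kept the direction but no longer passed, 18 came to pass and 11 changed direction. Values that passed in neither fit count as kept. Many of the 591 come from fits that leave out 1 library and share the rest, so they are not independent. None changed direction outside the length and GC offsets. In MDA-MB-231 the offset gave 0.20 for MDM2, 0.21 for MDM4 and -0.17 for CDKN1A (-0.16 for CDKN1A with E7 left out too), and its median transcript form gave 0.13 for MDM4 and -0.05 for CDKN1A. In HCC1937 the 2 forms gave -0.63 and -0.42 for CDKN1C and -0.09 and -0.07 for GADD45A, and the longest transcript form gave -0.17 for CDKN2A. With the offset, the members called higher in MDA-MB-231 came to 1, where 32.8% of all genes rose. Those called lower in HCC1937 came to 6, where 38.3% of all genes fell. The MDA-MB-231 count was also 1 with the median transcript form and with the offset without E7. No share over all genes is given for these forms, so nothing is read from their counts. The genes called for the difference between the lines ran between 3690 and 8334 when 1 library was left out, the highest without E7, and came to 7856 with the offset and E7 left out, against 4539 in all libraries. No paired analysis was possible because the groups share no replicate numbers. Limits: the offset assumes that no true change follows length or GC, transcripts of a gene are not told apart, CDKN1C in HCC1937 lies near the detection limit, and each group holds 3 libraries.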
